A study of Mus musculus with 13 samples.

Results

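Bone lesions of mice that carry 1 functional allele each of Prkar1a and Prkaca were compared with tail bone of mice that carry 1 functional allele of Prkaca alone. The comparison rests on 6 of the 13 arrays of the study, 2 of double heterozygous lesions (Prkar1a+/-Prkaca+/-, called lesion 1 and lesion 2 below) and 4 of Prkaca+/- bone, and covers every annotated gene that passed a detection filter, 10992 in all. All samples were caudal vertebral bone at 9 months of age on a C57BL/6x129Sv/B6 hybrid background, and total RNA was hybridised to Illumina bead arrays as biotinylated cRNA. Both sides carry the Prkaca deletion, so the groups differ in the Prkar1a allele and in the presence of a lesion, and these cannot be told apart because no lesion-free double heterozygous bone was analysed here. The other 7 arrays, of 3 Prkar1a+/- lesions and 4 WT bones, entered the model to estimate the spread and gave a second lesion contrast that shares no array with the first. The labels do not state whether replicates of a group stem from different mice. Sex-linked genes, given below, had the male pattern on lesion 1 and Prkaca+/- 1 to 3 and the female pattern on lesion 2 and Prkaca+/- 4, so lesion 1 and lesion 2 were different mice, as was Prkaca+/- 4 from the other 3. Among Prkaca+/- 1 to 3 the spread may be technical.

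Protein kinase A (PKA) is a tetramer of regulatory and catalytic subunits. cAMP binds the regulatory subunits and frees the catalytic ones, which phosphorylate targets such as the transcription factor CREB. Prkar1a encodes the regulatory subunit RIα and Prkaca the catalytic subunit Cα, and loss of RIα is known to release catalytic activity. In bone, cAMP and PKA carry the signal of parathyroid hormone to cells of the osteoblast lineage, which deposit the collagen matrix and also release RANKL, the cytokine that drives osteoclast formation.

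All values below are log2 signals after background correction and quantile normalisation, and a difference is the mean of the 2 lesion arrays minus the mean of the 4 Prkaca+/- arrays, with its standard error. A gene was called higher or lower when the adjusted p of limma (Benjamini-Hochberg) was under 0.05. On each array between 52.7% and 57.7% of 25697 probes were detected (detection p under 0.01). Xist, the RNA of the inactive X chromosome, was high on lesion 2 (8.52) and on Prkaca+/- 4 (8.30) and near background on lesion 1 and Prkaca+/- 1 to 3 (at most 5.20), so each side held both sexes in unequal shares. Xist and the Y-linked genes Eif2s3y, Kdm5d and Uty were not called (adjusted p at least 0.516). With 2 against 4 arrays an exact two-sided permutation test has 15 splits and cannot go below p = 0.0667, so single genes were tested only in the model across all genes. The skeletal muscle list, taken as a marker of muscle RNA, had a mean of 12.41 on lesion 1 and 12.42 on lesion 2 against 13.32 to 13.57 on the Prkaca+/- arrays. The signal of this list thus differed between the sides. The labels do not mention muscle, and the source of the difference was not tested. Of the 111 named genes, 102 had a call. With the muscle mean of each array as a covariate, called the muscle covariate below, 29 of these 102 genes lost it. The counts of each list that moved by over 1.5 times with this covariate are given beside it.

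The lesions differed from Prkaca+/- bone across much of the measured transcriptome. Of 10992 genes, 1708 were called higher (15.5%) and 1486 lower (13.5%), or 29.1% in either direction. The counts were 964 and 609 with the muscle covariate. Scaling each array to its 75th percentile gave 1518 higher and 1691 lower genes, so that the larger share turned to the lower genes. The median difference over all genes was -0.02. A list with shares near the 15.5% higher and 13.5% lower of all genes does not stand out. Among listed genes, 20 of 25 of fibrous matrix, 13 of 18 of osteoblasts, 10 of 16 of osteoclasts and 15 of 20 of cell division rose. Of fat cell genes 14 of 15 fell, and of oxidative phosphorylation genes 15 of 22. With the muscle covariate, 16 genes of fibrous matrix, 13 of osteoblasts, 10 of osteoclasts and 13 of cell division were higher. With it 10 fat cell genes were lower but only 3 oxidative phosphorylation genes. Both lesion arrays lay above all 4 Prkaca+/- arrays for 2827 genes (25.7%) and below them for 2868 (26.1%), and 3173 of the 3194 called genes had no overlap between the groups. In tissue RNA, more cells of a type and more RNA per cell cannot be told apart.

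By correlation, the 2 lesion arrays were closer to each other than to bone, but less alike than any pair of Prkaca+/- arrays. They correlated at r = 0.977 over all tested probes, against 0.979 to 0.989 between Prkaca+/- arrays. Each lesion array correlated with the Prkaca+/- arrays at 0.917 to 0.942. These values describe arrays that share a normalisation. Of the 3194 called genes, 2633 had lesion values within 0.5 of each other, 109 were over 1 apart and 13 over 2 apart. The call itself favours genes of small spread, and naming the largest called differences favours genes whose groups lie far apart. Lesion 1 had 1105 genes at least 2-fold above the Prkaca+/- mean and 853 at least 2-fold below it, and lesion 2 had 991 and 754. The Prkaca+/- arrays themselves had 13 to 49 and 7 to 32 such genes. With lesion 1 left out, 778 genes were higher and 318 lower, and with lesion 2 left out, 1021 and 545. Without 1 Prkaca+/- array the counts were 1324 to 1554 higher and 995 to 1296 lower. A lone lesion array was assumed to vary like the other groups. A call described as lost without either lesion array was lost both with lesion 1 alone left out and with lesion 2 alone left out.

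**Figure D1:**
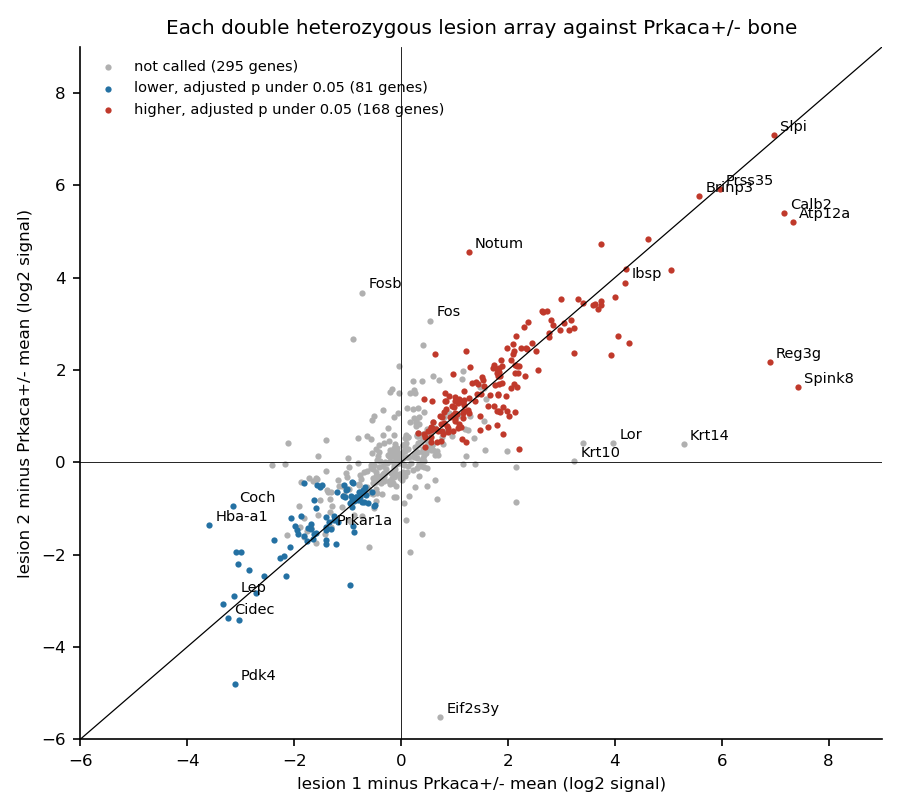
Difference of lesion 1 (x axis) and of lesion 2 (y axis) from the mean of the 4 Prkaca+/- arrays, in log2 signal, for the listed and named genes, coloured by the call of the 2 against 4 test, with a line of equality. Most called genes lie near the line; Spink8, Reg3g and the keratin Krt14 were higher on lesion 1, Notum and Fosb on lesion 2, and the Y-linked gene Eif2s3y was low on lesion 2.

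The PKA genes are given first, since the genotypes concern them. Prkar1a gave signals of 11.29 and 11.16 on the lesion arrays and 12.66, 12.49, 12.70 and 12.58 on the Prkaca+/- arrays. Both lesion arrays lay more than 1 log2 unit below all Prkaca+/- arrays. The difference of -1.38 ± 0.15 (adjusted p = 7.36e-05) put the lesions at 38.4% of Prkaca+/- bone, with a 95% interval of 30.8% to 47.8%. Where the probe lies relative to the deleted part was not known. Prkar1a has 6 promoter windows in RefSeq, and the window that holds a cAMP response element is shown because RIα is itself the brake on the cAMP pathway.

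The RefSeq sequence (build GRCm38.p6, plus strand) covers the 250 bases before that start, at chr11:109650699-109650948, with the cAMP response element TGACGTCA in capitals, beginning 49 bases before the start. The promoter of Mmp13, a collagenase with the highest mean lesion signal of the named genes, is set beside it, at chr9:7272264-7272513 on the plus strand, with a RUNX site (AACCACA) 119 bases and an AP-1 site (TGACTCA) 35 bases before the start in capitals.
Prkar1a: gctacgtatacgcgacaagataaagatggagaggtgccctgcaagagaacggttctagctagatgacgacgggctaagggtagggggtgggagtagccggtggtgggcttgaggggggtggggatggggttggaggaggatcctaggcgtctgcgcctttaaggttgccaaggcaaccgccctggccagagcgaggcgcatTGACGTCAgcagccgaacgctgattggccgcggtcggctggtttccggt
Mmp13: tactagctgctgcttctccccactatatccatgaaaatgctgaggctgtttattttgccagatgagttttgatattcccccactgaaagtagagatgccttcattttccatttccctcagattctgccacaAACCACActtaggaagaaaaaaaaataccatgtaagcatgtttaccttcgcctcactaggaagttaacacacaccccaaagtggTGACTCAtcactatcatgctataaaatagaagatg
A match of letters is a description and no proof of a binding site. Over promoter windows from 250 bases before to 50 after each start, searched on both strands, the element TGACGTCA was present for 3.34% of 8863 tested genes with a window, 2.68% of those called higher and 3.62% of those called lower. The AP-1 letters TGACTCA or TGAGTCA were present for 5.24% of the tested genes, 5.95% of the higher and 6.58% of the lower genes. The RUNX letters AACCACA or TGTGGTT were present for 4.70%, 4.61% and 5.26% of these groups.

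Prkaca, of which both sides carry 1 allele, was also lower in the lesions. Its signals were 9.68 and 9.19 on the lesion arrays and 10.93, 10.61, 10.58 and 10.19 on the Prkaca+/- arrays, without overlap. The difference was -1.14 ± 0.27 (adjusted p = 0.00940), or 45.4% of Prkaca+/- bone (95% interval 30.3% to 68.0%). A second probe of the gene gave -0.96 ± 0.24 (adjusted p = 0.0119). Without lesion 2 the difference was -0.90 (adjusted p = 0.102) and no longer called. The difference was -0.84 (adjusted p = 0.0440) with the muscle covariate.

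Of the 8 measured PKA subunit and inhibitor genes, 3 were lower, none was higher, and the median difference was -0.42. Prkar2a, the regulatory subunit RIIα, was the third, at 9.39 and 8.95 against 10.10, 10.01, 9.63 and 9.84, a difference of -0.72 ± 0.22 (adjusted p = 0.0293). It missed the threshold with the muscle covariate (adjusted p = 0.129), without lesion 1 (adjusted p = 0.0560), without lesion 2 (adjusted p = 0.243), without Prkaca+/- 1 (adjusted p = 0.0701) and without Prkaca+/- 2 (adjusted p = 0.0616). The catalytic subunit Cβ (Prkacb) read 12.33 and 12.65 in lesions and 12.24 to 12.57 in Prkaca+/- bone, a difference of 0.08 with a 95% interval of -0.27 to 0.43. The kinase Prkx read 9.75 and 9.79 and 9.57 to 9.91, with an interval of -0.32 to 0.32. Both ranges overlap between the sides. Pkia, an inhibitor peptide of the free catalytic subunit that is abundant in muscle, read 10.76 and 11.24 against 12.86, 12.65, 12.48 and 12.62, a difference of -1.65 ± 0.64 that did not pass (adjusted p = 0.0698) although the groups did not overlap. Pkig, another inhibitor, read 11.60 and 11.27 against 11.26 to 11.85, and Prkar2b lay near background at 5.09 and 5.11 against 4.88 to 5.35. Prkar1a alone of the 8 genes kept its call in both fits with a single lesion array, with 2 genes lower without lesion 1 and 1 without lesion 2; the count was also 2 without Prkaca+/- 1 and without Prkaca+/- 2.

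Upstream of PKA, 5 of 25 measured genes of cAMP synthesis, breakdown and anchoring were lower and none was higher (median -0.14). Of all tested genes, 13.5% were lower and 29.1% were called in either direction. Akap6, an anchoring protein that holds PKA at the nuclear envelope and sarcoplasmic reticulum of muscle, read 6.44 and 6.50 in lesions and 8.29, 7.85, 8.01 and 7.96 in Prkaca+/- bone (-1.56 ± 0.27, adjusted p = 0.00179). Adcy9, an adenylyl cyclase, read 7.28 and 7.83 against 8.73, 8.47, 8.003 and 8.69 (-0.92 ± 0.26, adjusted p = 0.0188). Without lesion 1, 2 of the 25 were lower and Adcy9 was not among the called genes; with the muscle covariate 2 were lower, again without Adcy9 (adjusted p = 0.0868).

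Of 19 measured genes known to respond to cAMP, 7 were higher and 1 lower (median 0.37). The median is the value of the brightest probe of Crem, which was not called, and its other probes gave -0.13, 0.25 and -0.08. Tnfsf11, which encodes RANKL, showed the largest rise of the list, with signals of 10.08 and 8.41 on the lesion arrays and 5.83, 6.10, 5.82 and 5.54 on the Prkaca+/- arrays. Lesion 1 was the higher of the lesions by over 1 log2 unit, and both lay far above bone. The difference was 3.42 ± 0.58 (adjusted p = 0.00162). Il6, an inflammatory cytokine, read 7.08 and 7.30 against 4.94, 5.15, 5.22 and 5.69 (1.94 ± 0.23, adjusted p = 0.000159); it was detected on 1 Prkaca+/- array and 1 empty intensity was filled there. Further members of the list, chosen as examples after their values were seen, were Pth1r, the parathyroid hormone receptor (9.61 and 9.97 against 7.06 to 8.25), the orphan nuclear receptor Nr4a2 (7.95 and 8.13 against 6.68 to 6.88) and Rgs2, a regulator of G protein signalling (7.21 and 5.91 against 5.16 to 5.44), all called higher. These examples were picked among the rises and do not stand for the list, of which 11 genes were not called. Ppargc1a, a coactivator of mitochondrial biogenesis, was the gene that fell, at 6.16 and 6.34 against 8.67, 8.44, 8.57 and 8.01 (-2.17 ± 0.68, adjusted p = 0.0319); its call was lost with the muscle covariate (adjusted p = 0.126), without either lesion array and without Prkaca+/- 1, 2 or 3. The list held 5 higher genes without lesion 2 and 8 without lesion 1, and its median turned to -0.10 without lesion 2 and to -0.04 over probes detected on all 13 arrays.

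**Figure D2:**
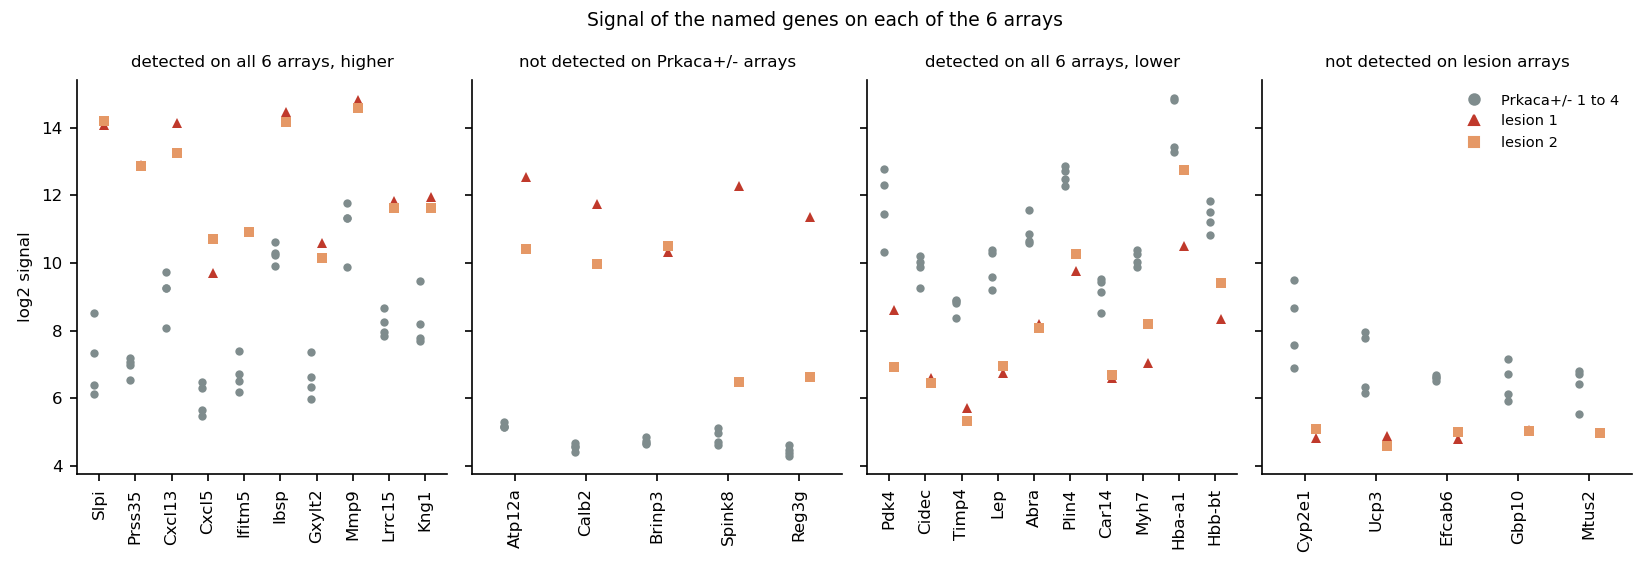
Log2 signal of the named genes on each array: grey circles for Prkaca+/- 1 to 4, a red triangle for lesion 1 and an orange square for lesion 2, in 4 blocks by detection and direction. Slpi lies at 14.07 and 14.19 on the lesion arrays and at most at 8.51 in Prkaca+/- bone, and Spink8 and Reg3g are far higher on lesion 1 than on lesion 2.

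Among genes detected on all 6 arrays, the largest rise was that of Slpi, a secreted inhibitor of neutrophil elastase. Its signals were 14.07 and 14.19 on the lesion arrays and 6.41, 6.12, 7.35 and 8.51 on the Prkaca+/- arrays, a difference of 7.03 ± 1.06 (adjusted p = 0.000816), with a fold of 131 and a 95% interval of 26.6 to 645.6. The Prkaca+/- arrays spread over more than 2 log2 units and the lesion arrays hardly at all. Prss35, a protein of the serine protease family, read 12.91 and 12.87 against 6.98, 7.07, 6.54 and 7.20 (5.95 ± 0.61, adjusted p = 5.69e-05). Cxcl13, a chemokine that attracts B cells, read 14.15 and 13.25 against 8.08, 9.25, 9.75 and 9.27 (4.61 ± 1.08, adjusted p = 0.00898). Cxcl5, a chemokine that attracts neutrophils, read 9.72 and 10.71 against 5.65, 6.47, 5.47 and 6.31 (4.24 ± 0.89, adjusted p = 0.00527). No lesion value of these 4 genes lay within 3 log2 units of a Prkaca+/- value. The rule that named them requires groups without overlap and takes the largest rises, so it favours wide gaps.

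Lrrc15, a membrane protein of activated fibroblasts and osteoblast lineage cells, read 11.82 and 11.62 against 7.98, 8.67, 7.84 and 8.27 (3.53 ± 0.66, adjusted p = 0.00293). Gxylt2, an enzyme that adds xylose to Notch, read 10.58 and 10.16 against 6.63, 5.97, 6.35 and 7.37 (3.79 ± 0.35, adjusted p = 3.33e-05). Kng1, the precursor of bradykinin, read 11.97 and 11.62 against 7.69, 7.80, 8.19 and 9.47 (3.51 ± 0.72, adjusted p = 0.00475). Prkaca+/- 4, the array with high Xist, was the highest of its group for Slpi, Prss35, Gxylt2 and Kng1. Lesion values lay above it, which the rule that named these genes requires. Of the 10 most raised genes, Cxcl13 (4.16, adjusted p = 0.0852) and Kng1 (3.33, adjusted p = 0.0508) missed the threshold without lesion 1, and Cxcl5 (3.74, adjusted p = 0.0553) without lesion 2.

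A further set of genes was measured in lesions and not detected on any Prkaca+/- array, as for 218 of the 1708 higher genes. For these, the fold is a bound. Each Prkaca+/- array enters it with the signal of its dimmest detected probe, or with the gene's signal where that was brighter. The bound concerns the mean of both lesion arrays and leaves out the spread between arrays. Atp12a, the catalytic subunit of a proton and potassium pump, read 12.54 and 10.42 in lesions and 5.16 to 5.32 in Prkaca+/- bone, at least 71.2-fold higher (adjusted p = 0.00223). Calb2, the calcium-binding protein calretinin, read 11.74 and 9.98 against 4.43 to 4.69, at least 46.4-fold higher (adjusted p = 0.000279), with all 4 Prkaca+/- intensities empty in the deposited table and filled. A dimmer second probe of Calb2, also not detected on any Prkaca+/- array, differed by 2.71 (adjusted p = 0.00140), a smaller rise than that bound, so the size of the rise depended on the probe. Brinp3, a protein named for its induction by bone morphogenetic protein and retinoic acid, read 10.32 and 10.51 against 4.65 to 4.86, at least 34.1-fold higher (adjusted p = 0.000192), with 4 filled. Brinp3 was the most even of the 3 genes between the lesions.

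Spink8 and Reg3g belonged to the same set but were dominated by lesion 1. Spink8, a Kazal-type protease inhibitor, read 12.29 and 6.49 on the lesion arrays and 4.61 to 5.13 on the Prkaca+/- arrays (3 filled), at least 16.8-fold higher (adjusted p = 0.0298), and 1.63 (adjusted p = 0.438) without lesion 1 against 7.43 without lesion 2. Reg3g, an antimicrobial lectin of epithelia, read 11.35 and 6.62 against 4.31 to 4.62 (4 filled), at least 12.7-fold higher (adjusted p = 0.0258), and 2.17 (adjusted p = 0.345) without lesion 1 against 6.90 without lesion 2. Both calls were also lost with the muscle covariate (adjusted p = 0.145 for Spink8 and 0.127 for Reg3g) and without Prkaca+/- 1, and that of Spink8 without Prkaca+/- 3 or 4.

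Osteoblast genes rose as a group: 13 of 18 measured markers were higher and none was lower, with a median of 1.81. Ifitm5, a membrane protein of mineralising osteoblasts, read 10.92 and 10.90 on the lesion arrays and 6.51, 6.73, 6.19 and 7.42 on the Prkaca+/- arrays, a difference of 4.20 ± 0.34 (adjusted p = 2.54e-05). Ibsp, bone sialoprotein, read 14.46 and 14.16 against 10.30, 10.23, 9.91 and 10.61 (4.05 ± 0.31, adjusted p = 2.54e-05), and a second probe gave 4.16. For both genes the lesion arrays were nearly equal and over 3 log2 units above every Prkaca+/- array, which the choice of the largest called rises favours. Examples chosen after their values were seen were Sp7, the transcription factor osterix (12.63 and 12.31 against 9.07 to 9.99), Alpl, tissue-nonspecific alkaline phosphatase (11.38 and 11.92 against 7.29 to 8.83), Bglap, osteocalcin (12.83 and 13.46 against 9.59 to 11.41), and Col1a1, a chain of type I collagen (14.87 and 14.77 against 11.47 to 12.30). The 5 genes that did not pass were Atf4, Dlx5, Mepe, Postn and Phospho1. Osteocalcin at 9.59 or more in Prkaca+/- bone fits the label of bone. Without lesion 1 the count was 12 and without lesion 2 it was 14.

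Of 11 measured osteocyte markers 4 were higher and none lower (median 0.57). Phex, the endopeptidase whose loss causes phosphate wasting, read 9.26 and 8.23 against 7.45, 7.13, 6.62 and 7.35 (1.61 ± 0.34, adjusted p = 0.00529), and the homeobox gene Irx5 read 9.34 and 8.63 against 7.53, 7.24, 7.23 and 7.70 (1.55 ± 0.27, adjusted p = 0.00208). Lesion 1 was the higher of the lesions for both. Without lesion 1 only 1 osteocyte gene was called, and Phex was lost (1.10, adjusted p = 0.0905); without Prkaca+/- 1 the count was 2, and with the muscle covariate it was also 2.

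Osteoclast markers rose too, 10 of 16 with none lower (median 1.17). Mmp9, a gelatinase of osteoclasts, read 14.82 and 14.58 in lesions and 11.32, 11.32, 9.90 and 11.77 in Prkaca+/- bone (3.62 ± 0.45, adjusted p = 0.000219). Dcstamp, which is needed for osteoclast fusion, read 8.89 and 8.56 against 4.80, 5.09, 4.99 and 5.74 (3.57 ± 0.29, adjusted p = 2.54e-05), with detection on 1 Prkaca+/- array and 1 filled value. Prkaca+/- 3 was lowest for Mmp9 and Prkaca+/- 4 highest for Dcstamp. No lesion value fell within either range, which for Mmp9 the rule for the 10 largest rises requires and for Dcstamp the choice of the largest called rises favours. Examples chosen after their values were seen were the resorption enzymes Ctsk (15.35 and 15.31 against 12.09 to 12.66) and Acp5 (9.44 and 9.15 against 5.98 to 6.77) and the RANKL receptor Tnfrsf11a (8.30 and 8.30 against 6.42 to 7.11), all called. The probes of Nfatc1 (looked at after its values were seen), the transcription factor of osteoclast formation, disagreed: the brightest gave -0.09, and others 1.24, -1.09 and -1.27. The count of higher genes was 9 without lesion 1, 9 without lesion 2 and 7 over probes detected on all 13 arrays.

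Of 25 measured genes of fibrous matrix and collagen processing, 20 were higher and none lower (median 1.60), the largest share of rises among the lists. Lum, the collagen-binding proteoglycan lumican, read 13.77 and 14.32 on the lesion arrays and 10.51, 10.85, 11.67 and 11.13 on the Prkaca+/- arrays (3.00 ± 0.58, adjusted p = 0.00367). Col5a2, a chain of type V collagen, read 9.32 and 9.45 against 6.66, 7.25, 6.79 and 6.79 (2.51 ± 0.34, adjusted p = 0.000395). Lesion 2 was slightly the higher for both. The collagen-modifying enzyme Plod2 (9.23 and 9.51 against 6.92 to 7.40) and Tnc, tenascin C (11.83 and 12.08 against 9.29 to 10.14), named after their values were seen, were called as well. Without lesion 1, 16 genes of the list were higher and without lesion 2, 17.

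In the secretory pathway 15 of 27 genes were higher and none lower (median 0.56). The KDEL receptors, which return escaped chaperones to the endoplasmic reticulum, led the list. Kdelr3 read 11.57 and 11.45 against 9.44, 9.44, 9.31 and 9.30 (2.14 ± 0.18, adjusted p = 2.54e-05) and Kdelr2 read 10.99 and 11.19 against 8.96, 9.02, 9.26 and 9.18 (1.98 ± 0.24, adjusted p = 0.000165). These differences were many times the spread within either group, which the choice of the largest called rises favours. Without lesion 1 the count of higher genes was 9, without lesion 2 it was 10 and with the muscle covariate it was 10.

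Of 20 measured metalloproteinases and inhibitors, 11 were higher and 1 lower (median 0.81). Mmp13, whose promoter is printed above, read 15.56 and 15.37 in lesions and 11.87, 12.32, 11.64 and 12.05 in Prkaca+/- bone (3.49 ± 0.31, adjusted p = 2.70e-05), the highest mean lesion signal of the named genes; other probes gave 5.04 and 3.63. Timp4, an inhibitor of metalloproteinases that is high in heart, muscle and fat, was the gene that fell, at 5.71 and 5.32 against 8.39, 8.87, 8.91 and 8.81 (-3.23 ± 0.59, adjusted p = 0.00268). The inhibitor Timp1 went the other way, at 13.01 and 13.06 against 8.93 to 10.17, a member named after its values were seen. Both calls by the rule held without either lesion array.

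Wnt pathway genes were called higher in 12 and lower in 3 of 28 cases (median 0.65). The secreted frizzled-related proteins, which bind Wnt ligands outside the cell, led the rises. Sfrp2 read 13.97 and 12.65 against 9.58, 10.23, 9.56 and 10.27 (3.40 ± 0.52, adjusted p = 0.000888) and Sfrp4 read 14.20 and 12.60 against 9.56, 9.94, 10.38 and 11.24 (3.12 ± 0.62, adjusted p = 0.00389). Lesion 1 exceeded lesion 2 by over 1 log2 unit for both, and Sfrp4 missed the threshold without lesion 1 (2.32, adjusted p = 0.0687). The receptors Fzd4 (6.24 and 6.24 against 7.87, 7.79, 7.32 and 7.01; -1.26 ± 0.39, adjusted p = 0.0292) and Fzd7 (8.39 and 9.36 against 10.02, 9.96, 9.59 and 10.04; -1.02 ± 0.27, adjusted p = 0.0144) fell. Fzd4 lost its call without either lesion array and without Prkaca+/- 1 or 2, Fzd7 without lesion 1, and the count of lower genes was 0 without lesion 1, 1 without Prkaca+/- 1 and 1 without Prkaca+/- 2. Without lesion 2, 8 genes were higher. In the fit with the muscle covariate 10 genes were higher and none lower (adjusted p = 0.144 for Fzd4 and 0.0733 for Fzd7).

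Notum, a secreted enzyme that removes the lipid from Wnt ligands, was the detected gene whose lesion values differed most under the named rule. It read 7.17 and 10.45 on the lesion arrays and 6.22, 5.46, 5.53 and 6.39 on the Prkaca+/- arrays. The rise was slight on lesion 1 and large on lesion 2. Over both the difference was 2.91 ± 0.70 (adjusted p = 0.00991), with 1.26 (adjusted p = 0.143) without lesion 2 and 4.55 without lesion 1. In the Prkar1a+/- lesions against WT the difference was 1.21 and was not called.

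Of 31 BMP and TGF-beta pathway genes, 14 were higher and 3 lower (median 0.60). The ligand Bmp3 read 9.64 and 9.81 against 7.64, 7.35, 7.18 and 8.19 (2.14 ± 0.32, adjusted p = 0.000733) and Bmp1, a protease that trims procollagen, read 12.85 and 12.40 against 10.74, 10.76, 10.79 and 10.91 (1.83 ± 0.23, adjusted p = 0.000228). The receptor Bmpr1b fell, at 6.92 and 7.63 against 9.09, 8.74, 8.32 and 9.02 (-1.52 ± 0.34, adjusted p = 0.00689), as did the ligand Bmp6, at 4.83 and 5.91 against 6.22, 6.20, 6.48 and 6.68 (-1.03 ± 0.30, adjusted p = 0.0227), with 1 lesion value filled. The direction thus differed between ligands. Without lesion 1, 8 genes were higher and none lower, and without lesion 2, 7 were higher; with the muscle covariate 9 were higher and 2 lower, without Bmp6 (adjusted p = 0.105).

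The IGF and FGF axis had 9 higher and 4 lower genes of 20 (median 0.38). Igf1, the growth factor, read 10.07 and 10.40 against 8.17, 8.19, 8.38 and 8.68 (1.88 ± 0.38, adjusted p = 0.00464) and its binding protein Igfbp4 read 13.46 and 13.81 against 11.30, 11.47, 11.70 and 11.85 (2.05 ± 0.36, adjusted p = 0.00203). Another binding protein, Igfbp6, was lower at 8.95 and 10.31 against 10.50, 10.92, 10.75 and 10.89 (-1.14 ± 0.32, adjusted p = 0.0201), almost all of it on lesion 1, and was not called without that array (-0.46, adjusted p = 0.326). Fgf1 read 7.88 and 7.33 against 8.98, 9.23, 8.71 and 9.43 (-1.49 ± 0.31, adjusted p = 0.00560) and missed the threshold without lesion 2 (adjusted p = 0.0660). In total 7 genes were higher and 1 lower without lesion 1, and 6 higher and 2 lower without lesion 2. With the muscle covariate 6 were higher and 1 lower, and Igfbp6 was lost (adjusted p = 0.0976). The hedgehog list had 1 higher gene, the transducer Smo (0.74), and 1 lower gene, the ligand Dhh (-1.23), of 6; Smo lost its call without either lesion array, and Dhh without lesion 1, and with the muscle covariate neither was called (adjusted p = 0.0669 for Smo and 0.0708 for Dhh).

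Prostaglandin and interleukin-1 genes were higher in 6 and lower in 1 of 15 cases (median 0.75). Il1b, interleukin-1β, read 7.64 and 8.26 on the lesion arrays and 4.91, 4.89, 5.27 and 4.90 on the Prkaca+/- arrays, where it was not detected and 3 values were filled. It was at least 6.19-fold higher (adjusted p = 0.00273). Il11, a cytokine of the interleukin-6 family, read 8.77 and 7.90 against 5.45, 5.25, 5.41 and 5.98 (2.81 ± 0.37, adjusted p = 0.000348). For both genes the gap between the groups was wider than the whole Prkaca+/- range, which the choice of the largest called rises favours. Ptgs2, the inducible cyclooxygenase, was not detected on the Prkaca+/- arrays (1 filled) and read 6.26 and 6.62 against 4.80 to 5.29, a called rise of at least 2.18-fold, named after its values were seen. Ptges2, a prostaglandin E synthase, fell (6.79 and 6.37 against 7.54, 7.18, 7.38 and 7.05; -0.70 ± 0.23, adjusted p = 0.0359), and its call was lost with the muscle covariate (adjusted p = 0.127), without either lesion array and without Prkaca+/- 1, 2 or 3. Over probes detected on all 13 arrays, 1 gene of the list was higher, a setting that leaves out genes not detected in bone.

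Cell division genes were higher in 15 of 20 cases and lower in none (median 1.21). Prc1, which bundles microtubules of the dividing spindle, read 9.15 and 9.05 against 6.53, 6.50, 7.23 and 6.26 (2.47 ± 0.29, adjusted p = 0.000165). Top2a, the topoisomerase of dividing cells, read 7.0005 and 7.46 against 4.75, 4.96, 4.75 and 5.15; it was not detected on any Prkaca+/- array, where 2 values were filled, and was at least 3.75-fold higher (adjusted p = 9.10e-05). The lesion arrays were alike and lay well above bone in both cases, which the choice of the largest called rises favours. Probes of Cdk1 and Tyms disagreed, since second probes gave 0.24 for Cdk1 and 0.43 and -0.10 for Tyms against 1.87 and 1.53 for the brightest. Without lesion 1, 10 genes were higher, and 6 were over probes detected on all 13 arrays.

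**Figure D3:**
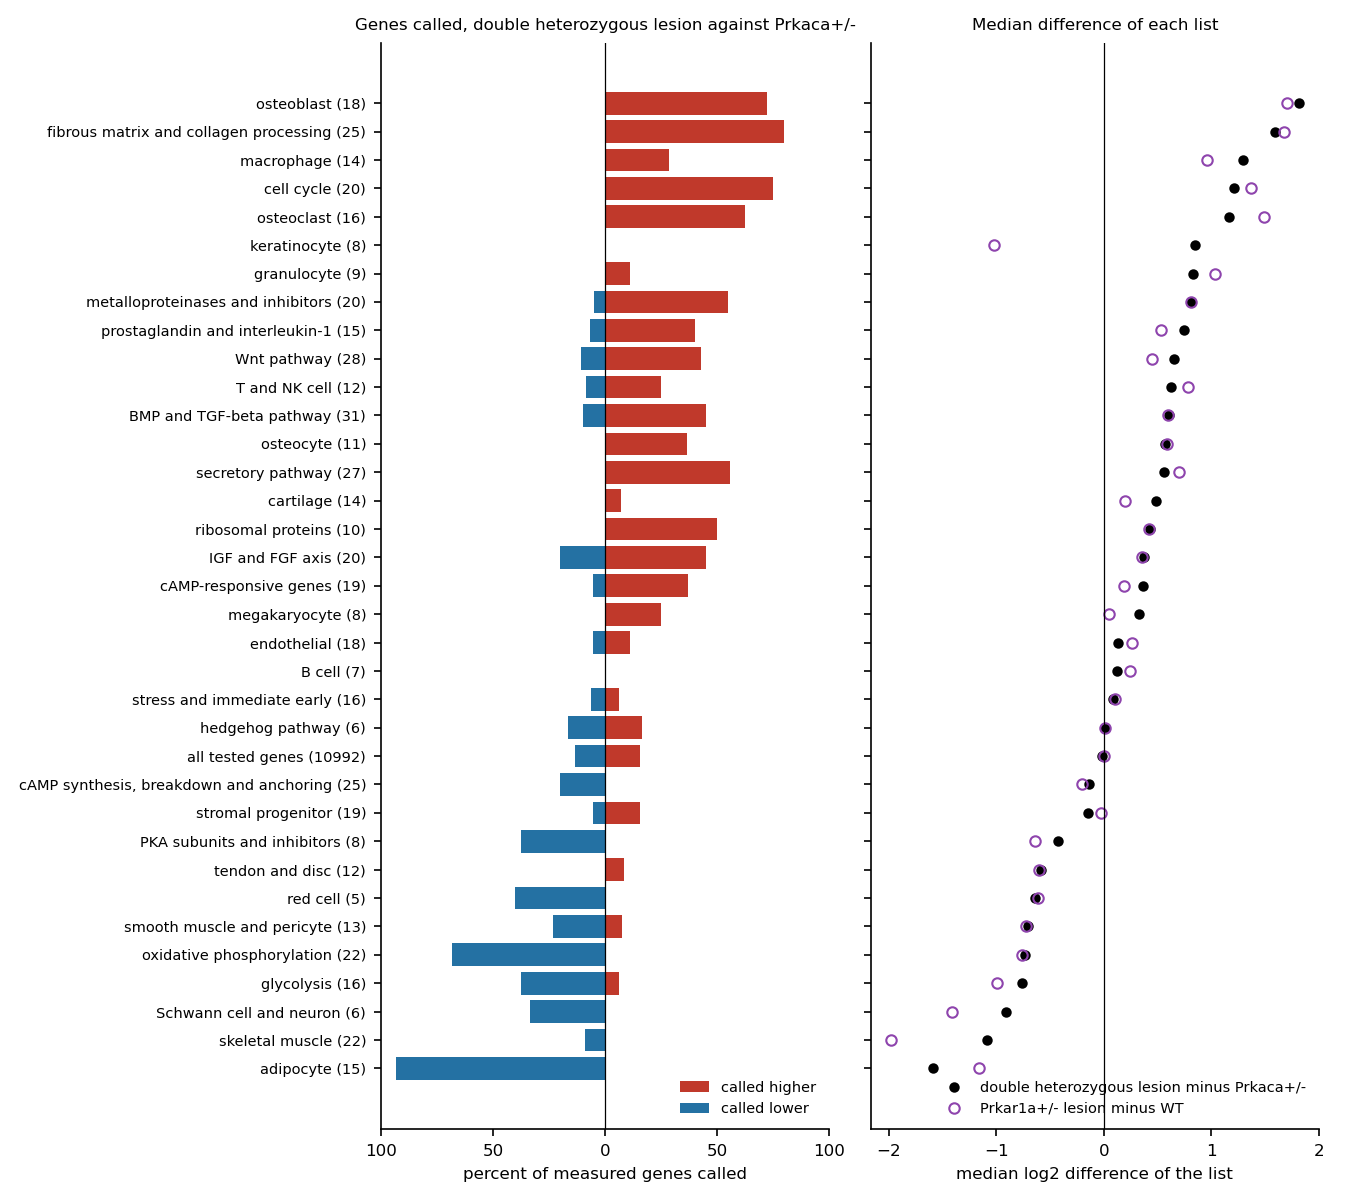
Left, the percentage of measured genes in each list called higher (red) or lower (blue) in double heterozygous lesions against Prkaca+/- bone, with the number measured in brackets and all tested genes for reference. Right, the median log2 difference of each list in that contrast (filled) and in Prkar1a+/- lesions against WT (open); the osteoblast list is at 1.81 and the adipocyte list at -1.59 in the double heterozygous contrast.

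The gene group with the largest share of falls was that of fat cells, with 14 of 15 measured adipocyte markers lower and none higher (median -1.59). Cidec, a lipid droplet protein, read 6.61 and 6.46 on the lesion arrays and 9.27, 9.87, 10.20 and 10.03 on the Prkaca+/- arrays (-3.31 ± 0.57, adjusted p = 0.00175). Lep, the hormone leptin, read 6.74 and 6.96 against 9.20, 9.58, 10.28 and 10.40 (-3.01 ± 0.61, adjusted p = 0.00434). Plin4, another coat protein of lipid droplets, read 9.76 and 10.26 against 12.49, 12.87, 12.29 and 12.73 (-2.59 ± 0.57, adjusted p = 0.00687). The lesion arrays differed little from each other and lay at least 2 log2 units below every Prkaca+/- array in these 3 genes. The choice of the largest called falls favours such gaps. Cyp2e1, a cytochrome P450 of liver and fat, was detected on all 4 Prkaca+/- arrays (7.58, 6.91, 8.67 and 9.50) and on neither lesion array (4.84 and 5.09, 1 filled), at least 7.93-fold lower (adjusted p = 0.00383). In Prkar1a+/- lesions against WT, Cyp2e1 differed by -0.78 and was not called. Without lesion 1, 6 adipocyte genes were lower, without lesion 2, 9, and with the muscle covariate 10; Plin4 missed the threshold without lesion 1 (-2.33, adjusted p = 0.0722).

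Muscle genes were lower in level, but few passed the test. The skeletal muscle list had a median of -1.09 over 22 genes, with 2 called lower and none higher, where 13.5% of all tested genes were lower. Casq1, a calcium store of the sarcoplasmic reticulum, read 7.95 and 8.20 against 10.19, 10.28, 10.02 and 9.66 (-1.96 ± 0.64, adjusted p = 0.0373), and Actn2, an actin crosslinker of the Z disc, read 12.95 and 12.66 against 14.20, 14.39, 14.47 and 14.33 (-1.54 ± 0.52, adjusted p = 0.0430). With the mean of this list as the covariate, Casq1 was -0.82 (adjusted p = 0.0234) and Actn2 was not called (adjusted p = 0.0579), with 1 gene of the list higher and 1 lower. Neither call held without either lesion array, nor without Prkaca+/- 1, 2 or 3, and Actn2 also missed it without Prkaca+/- 4. In a fit of the 6 arrays alone 16 of the 22 were lower; in the fit of all arrays the spread includes the Prkar1a+/- lesions, whose muscle means were 13.11, 9.89 and 11.90. Abra (8.20 and 8.08 against 10.85, 11.57, 10.64 and 10.60; -2.78 ± 0.65, adjusted p = 0.00872), an actin-binding activator of muscle transcription, and Myh7 (7.06 and 8.20 against 9.89, 10.03, 10.25 and 10.39; -2.51 ± 0.48, adjusted p = 0.00347), the slow myosin heavy chain, were among the 10 most lowered genes detected on all arrays. Abra lost its call without either lesion array and Myh7 without lesion 1 (adjusted p = 0.0613).

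Pdk4, a kinase that inhibits pyruvate dehydrogenase, showed the largest fall of a gene detected on all 6 arrays, at 8.61 and 6.92 against 11.44, 12.78, 12.31 and 10.34. Both groups were spread widely, by over 1.5 log2 units in the lesions and over 2 in Prkaca+/- bone. They did not overlap, which the rule that named the gene requires. The difference was -3.96 ± 0.94 (adjusted p = 0.00945), and -3.11 without lesion 2, where it was not called (adjusted p = 0.102). Without lesion 1 it was -4.80. Car14, a carbonic anhydrase of muscle and other membranes, read 6.59 and 6.69 against 9.45, 9.54, 8.51 and 9.13 (-2.52 ± 0.54, adjusted p = 0.00621) and missed the threshold without lesion 1 (adjusted p = 0.0549).

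Most of the measured oxidative phosphorylation genes and a minority of the glycolysis genes were called lower. Of 22 subunits of oxidative phosphorylation, 15 were lower and none higher (median -0.73). Cox7a1, the muscle form of a cytochrome oxidase subunit, read 10.53 and 10.69 against 12.98, 12.98, 12.11 and 12.80 (-2.11 ± 0.69, adjusted p = 0.0382), and Atp5g1, a subunit of the ATP synthase ring, read 12.32 and 12.28 against 13.34, 13.29, 13.31 and 13.03 (-0.94 ± 0.24, adjusted p = 0.0139). Of 16 genes of glycolysis, 6 were lower and 1 higher (median -0.76). Slc2a4, the insulin-sensitive glucose transporter of muscle and fat, read 8.57 and 9.28 against 11.10, 10.94, 10.76 and 11.02 (-2.03 ± 0.56, adjusted p = 0.0178), and Hk2, hexokinase 2, read 11.54 and 11.59 against 13.05, 12.77, 12.93 and 12.79 (-1.32 ± 0.31, adjusted p = 0.00898). Pgam1, an enzyme of lower glycolysis, rose (8.17 and 8.85 against 7.41, 7.61, 7.23 and 7.11; 1.17 ± 0.26, adjusted p = 0.00735) and lost its call without lesion 2 (adjusted p = 0.0988). These counts moved with the muscle covariate and with single arrays. Of the oxidative phosphorylation list, 3 genes were lower with the muscle covariate (not Atp5g1, adjusted p = 0.0634), none without lesion 1, 3 without lesion 2, 7 without Prkaca+/- 1 and 9 without Prkaca+/- 2. Of the glycolysis genes, 2 were lower with the muscle covariate, none without either lesion array and 3 without Prkaca+/- 1 or 2. Among the named genes, the muscle covariate moved Cox7a1 to -0.90, Slc2a4 to -1.06 and Hk2 to -0.86, all still called. The named genes of these lists other than Pgam1 lost their calls without either lesion array, and Cox7a1 also without Prkaca+/- 1, 2 or 4. Ribosomal protein genes went the other way, with 5 of 10 higher and none lower (median 0.43). Rpl3 read 14.71 and 14.41 against 13.54, 13.67, 13.81 and 13.92 (0.83 ± 0.19, adjusted p = 0.00915), and Rps19 rose by 0.82, while a dim second probe of Rps19 gave -0.27. Without lesion 1, 1 ribosomal protein gene was higher and Rpl3 was lost (adjusted p = 0.104), and 3 were higher without lesion 2, without Prkaca+/- 1, without Prkaca+/- 3 or with the muscle covariate.

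Haemoglobin genes were lower in the lesions, unequally so. Hba-a1, an α-globin, read 10.51 and 12.74 on the lesion arrays and 13.28, 13.43, 14.83 and 14.88 on the Prkaca+/- arrays, the lesions 2.24 log2 units apart. Its difference was -2.48 ± 0.75 (adjusted p = 0.0269), with -1.36 (adjusted p = 0.315) without lesion 1 and -3.59 without lesion 2, and it was lost without Prkaca+/- 3 or 4. Hbb-bt, a β-globin, read 8.35 and 9.41 against 11.21, 10.83, 11.82 and 11.52 (-2.46 ± 0.48, adjusted p = 0.00365), and Alas2, the haem synthesis enzyme of red cells, read 4.72 and 5.56 against 7.17, 6.87, 8.41 and 8.62 (-2.63 ± 0.56, adjusted p = 0.00560) with 1 lesion value filled. Without lesion 1, Hbb-bt (-1.94, adjusted p = 0.0620) missed the threshold. Near-identical globin copies may share these probes. Of 5 measured red cell genes 2 were lower, none of them without lesion 1.

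The blood cell counts stand beside the 15.5% higher and 13.5% lower of all tested genes. Among blood cells, macrophage markers had a median of 1.30, with 4 of 14 higher and none lower. Cx3cr1, the fractalkine receptor, read 9.47 and 9.71 against 6.57, 5.85, 5.71 and 6.54 (3.42 ± 0.67, adjusted p = 0.00384) and Aif1, a calcium-binding protein of macrophages, read 9.66 and 9.10 against 6.66, 6.97, 7.33 and 7.40 (2.29 ± 0.54, adjusted p = 0.00898). Lesion values lay above the range of bone for both, which the choice of the largest called rises favours. In the fit of the 6 arrays alone 10 of the 14 were higher; without lesion 1 the count was 2, without lesion 2 it was 3, with the muscle covariate it was 3, and Aif1 missed the threshold without lesion 1 (adjusted p = 0.0900). The T and NK cell list had 3 higher and 1 lower of 12 (median 0.63). Cd247, the ζ chain of the T cell receptor, read 8.74 and 8.30 against 6.42, 6.10, 6.95 and 6.20 (2.10 ± 0.29, adjusted p = 0.000419), and Lat, a signalling adaptor, rose by 1.64 (adjusted p = 0.00475) but not without lesion 1 (adjusted p = 0.0601). The kinase Zap70 fell, with a difference of -0.80 ± 0.27 (adjusted p = 0.0432), and its call was lost with the muscle covariate (adjusted p = 0.0520), without either lesion array and without Prkaca+/- 1, 3 or 4. Of the T and NK list 1 gene was higher without lesion 1 and 2 without lesion 2. No gene of 7 B cell markers was called by limma, with 1 at an unadjusted p under 0.05, and 2 were higher in the fit of the 6 arrays alone. Granulocyte genes had 1 higher of 9 (the protease Prtn3, 1.09, lost without lesion 1, with 2 higher genes without lesion 2 and without Prkaca+/- 4) and megakaryocyte genes 2 of 8 (Rab27b and Gp1bb, neither of them detected on any Prkaca+/- array, with 2 and 4 values filled there). Rab27b was at least 1.36-fold higher (adjusted p = 0.00394), and Gp1bb, detected on 1 lesion array, was too dim for a bound (adjusted p = 0.0210). Rab27b lost its call without lesion 1, where its second probe gave 0.17 in the fit of both lesion arrays, and Gp1bb without either lesion array and with the muscle covariate (adjusted p = 0.108).

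Vessel, stromal and nerve markers moved in both directions, where 29.1% of all tested genes were called. Of 18 endothelial genes, 2 were higher and 1 lower (median 0.14), and with the muscle covariate 1 and 1, without Plvap (adjusted p = 0.179). Sox18, a transcription factor of endothelium, rose by 0.87 ± 0.21 (adjusted p = 0.00958), and Stab2, a scavenger receptor of sinusoids, read 5.38 and 5.38 against 7.19, 6.99, 7.12 and 6.84 (-1.65 ± 0.25, adjusted p = 0.000804). Plvap, a protein of fenestrated vessels, rose by 0.65 (adjusted p = 0.0373). Sox18 lost its call without lesion 2 and Plvap without any single array but Prkaca+/- 1, so the count of rises was 0 without lesion 2, while Stab2 was called without either lesion array. Of 13 smooth muscle and pericyte genes, 1 was higher and 3 lower (median -0.71). Myocd, the coactivator of smooth muscle genes, differed by -1.58 and Abcc9, a channel subunit of pericytes, by -1.24 (a dim second probe gave -0.55). Heyl, a Notch target, rose by 0.82 (adjusted p = 0.0440), a call lost with the muscle covariate (adjusted p = 0.102) and without lesion 1, Prkaca+/- 2 or Prkaca+/- 3. No fall of this list was called without lesion 1, and Abcc9 was also lost without lesion 2. Of 19 stromal progenitor markers, 3 were higher and 1 lower (median -0.15). That median is the value of the brightest probe of Cxcl12, whose other probes gave 0.31 and 0.18. Fap, a fibroblast protease, read 11.51 and 10.95 against 9.40, 9.29, 8.88 and 9.76 (1.90 ± 0.43, adjusted p = 0.00775), Thy1 rose by 1.36, and Nes, nestin, changed by -1.20. Fap lost its call without lesion 1, and Thy1 and Nes without either lesion array; Thy1 was also lost without Prkaca+/- 1 or 2 and Nes without Prkaca+/- 2 or 3. The count of rises was 1 without lesion 1 and 1 without lesion 2. With the muscle covariate 2 were higher and none lower, and Thy1 (adjusted p = 0.115) and Nes (adjusted p = 0.157) were lost. The Schwann cell and neuron list had 2 lower genes of 6, both of which lost the call without lesion 1 and with the muscle covariate (adjusted p = 0.0832 for Mbp and 0.0799 for Pmp22), where 1 other gene was higher. Mbp, myelin basic protein, differed by -1.63 (other probes gave 0.48 and -1.48), and Pmp22, a protein of peripheral myelin, by -0.80 (a second probe gave -0.45). Pmp22 was also lost without lesion 2, Prkaca+/- 2 or Prkaca+/- 4.

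Of 14 cartilage genes only Col11a1 was called, at 7.77 and 7.36 against 6.93, 5.85, 5.86 and 5.96 (1.42 ± 0.41, adjusted p = 0.0222; other probes gave 0.77 and 2.49), and not without either lesion array or Prkaca+/- 2. In that list 2 genes were higher with the muscle covariate. In the tendon and disc list of 12 genes, 1 was higher. That gene, Tnn, encodes tenascin N (tenascin W), a matrix protein of periosteum and developing bone, and gave signals of 9.73 and 9.95 on the lesion arrays and 4.70, 5.83, 4.84 and 5.06 on the Prkaca+/- arrays. It was detected on 1 Prkaca+/- array and 2 values were filled, and the difference of 4.73 ± 0.31 (adjusted p = 2.32e-05) kept its call in every alternative in which the gene was tested.

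The lesions differed from each other in keratin and immediate early genes, which were examined after their values were seen. The keratinocyte list had a mean of 8.81 on lesion 1 and 6.57 on lesion 2, against 6.21 to 7.12 in Prkaca+/- bone, 6.52 to 7.96 in WT bone and 5.79 to 6.09 in Prkar1a+/- lesions. Krt14, a keratin of basal epidermis, read 11.48 and 6.58 against 4.91 to 7.22, and Krt10, a keratin of upper epidermis, read 12.38 and 9.16 against 8.63 to 10.05. Only lesion 1 was high, and 0 of 8 keratinocyte genes were called in the limma fit of both arrays (3 at an unadjusted p under 0.05, and 4 called without lesion 2). Epidermal RNA on lesion 1 moves with results that rest on that array, and its part in them was not tested. Spink8 and Reg3g, which were far higher on lesion 1, are such results.

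Immediate early genes were high on lesion 2. Fosb, a subunit of the AP-1 transcription factor, read 6.07 and 10.47 against 5.36 to 7.60, and Fos read 10.64 and 13.16 against 8.91 to 10.56, and neither was called. Junb, another AP-1 subunit, read 8.74 and 10.45 against 7.92, 8.53, 8.10 and 7.86 (1.49 ± 0.40, adjusted p = 0.0171) and was not called without lesion 2 (0.64, adjusted p = 0.266). Once the muscle covariate was added it was 1.24 (adjusted p = 0.0797), and no gene of the list was higher. The whole list of 16 stress and immediate early genes had 1 higher and 1 lower gene, 6 higher without lesion 1 and 0 higher without lesion 2. Its mean was 9.46 on lesion 1 and 10.39 on lesion 2 against 9.60 to 10.005 in Prkaca+/- bone. The lower gene, Hspa1a, an inducible heat shock protein, read 6.40 and 6.99 against 8.25, 8.50, 8.26 and 8.52 (-1.69 ± 0.21, adjusted p = 0.000216) and held without either lesion array. Immediate early genes are known to respond quickly to many stimuli.

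Other genes whose lesion values lay far apart were Coch, Kcnj15 and Nrip3. Coch, the matrix protein cochlin, read 9.83 and 12.03 against 13.19, 12.54, 13.40 and 12.81 (-2.05 ± 0.52, adjusted p = 0.0132), mostly through lesion 1, without which it was not called (-0.96, adjusted p = 0.221). Kcnj15, a potassium channel, read 8.64 and 6.73 against 6.35, 6.39, 6.53 and 6.49 (1.24 ± 0.42, adjusted p = 0.0416), again through lesion 1 (without it 0.29, adjusted p = 0.613), and its call was lost without any single Prkaca+/- array. Nrip3 read 8.37 and 6.66 against 9.33, 9.47, 10.08 and 8.41 (-1.81 ± 0.60, adjusted p = 0.0402), mostly through lesion 2 (without it -0.95, adjusted p = 0.379), and lost its call without Prkaca+/- 1, 2 or 3. With the muscle covariate none of the 3 was called (adjusted p = 0.0541 for Coch, 0.175 for Kcnj15 and 0.193 for Nrip3).

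**Figure D4:**
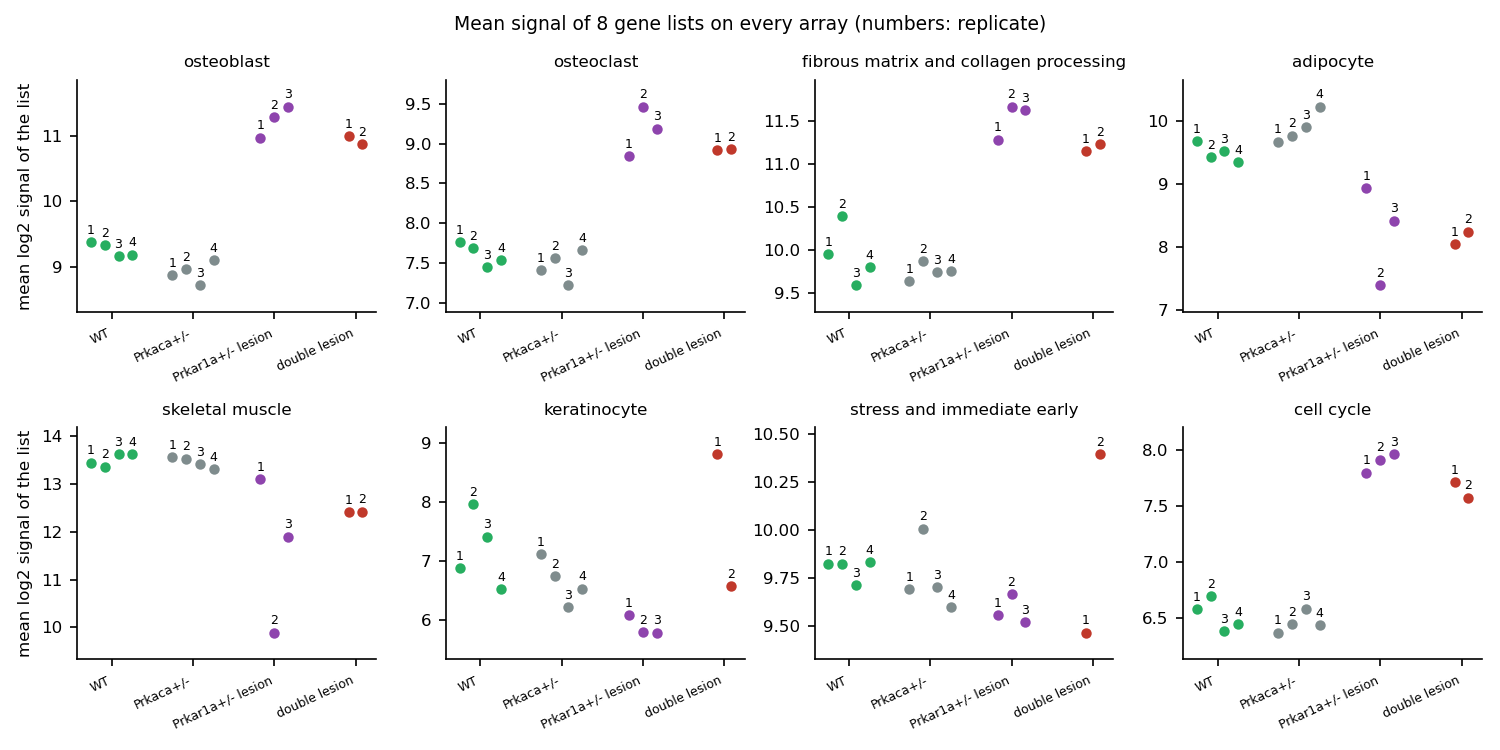
Mean log2 signal of 8 gene lists on each of the 13 arrays, by group, with the replicate number above each point and "double lesion" for Prkar1a+/-Prkaca+/- lesions. The osteoblast, osteoclast, matrix and cell cycle means of lesion 1 and lesion 2 lie above all Prkaca+/- arrays and the adipocyte and muscle means below them, while the keratinocyte mean is high on lesion 1 and the stress and immediate early mean on lesion 2.

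Of the 1486 lower genes, 66 were not detected on either lesion array, and 45 of these were detected on all 4 Prkaca+/- arrays, Cyp2e1 among them. Their folds are bounds taken the same way on the lesion side. Efcab6 read 6.62, 6.63, 6.51 and 6.68 in bone and 4.79 and 5.01 in lesions (1 filled), at least 2.70-fold lower (adjusted p = 0.00246); a second probe gave -0.69. Gbp10, an interferon-induced GTPase, read 7.17, 6.73, 5.92 and 6.14 against 5.08 and 5.03, at least 2.48-fold lower (adjusted p = 0.0151), and was lost without either lesion array. Ucp3, an uncoupling protein of muscle mitochondria, read 6.33, 7.96, 7.78 and 6.15 against 4.89 and 4.59 (2 filled), at least 3.67-fold lower (adjusted p = 0.0428); a second probe gave -1.97 and was not called. Mtus2 read 6.43, 6.81, 6.71 and 5.55 against 4.97 and 4.98, at least 2.29-fold lower (adjusted p = 0.0415). Ucp3 lost its call without either lesion array and without Prkaca+/- 2 or 3, and Mtus2 without either lesion array and without Prkaca+/- 1, 2 or 3. With the muscle covariate Ucp3 (adjusted p = 0.140), Gbp10 (adjusted p = 0.0536) and Mtus2 (adjusted p = 0.115) were lost. Only for Efcab6 did the bone values lie within 0.2 of each other.

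The second contrast, 3 Prkar1a+/- lesions against 4 WT bones, asks whether the same genes differ where both Prkaca alleles are present. It called 2277 genes higher (20.7%) and 2121 lower (19.3%), or 40.0% in either direction. The muscle covariate left 459 higher and 99 lower; the muscle means of the Prkar1a+/- lesions, given above, spread over more than 3 log2 units. Of the 1708 genes higher in the double heterozygous lesions, 1515 were also called higher there, 88.7% of the double heterozygous list and 66.5% of the other. Of the 1486 lower genes, 1280 were also called lower, 86.1% and 60.3%. Where both contrasts had the muscle covariate, 443 genes were shared of the 964 and 459 higher (46.0% and 96.5%) and 87 of the 609 and 99 lower (14.3% and 87.9%). The sign was the same for 98.7% of the higher and 99.7% of the lower genes, where 50.4% and 49.6% of all tested genes had that sign in the second contrast. The median difference of the higher genes was 1.01 in the double heterozygous contrast and 1.02 in the other, and that of the lower genes was -0.89 in both. The contrasts share no array but share the normalisation and the estimate of the spread.

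Prkar1a differed by -1.38 in the double heterozygous contrast and by -1.43 in the Prkar1a+/- contrast, and the difference between these was 0.04 with a 95% interval of -0.38 to 0.47. Prkaca differed by -1.14 and -1.08, with an interval of -0.84 to 0.72 for the difference. Slpi rose by 7.03 and 4.82, a difference of 2.21 (-0.85 to 5.28). Cx3cr1 rose by 3.42 and differed by 1.43 without a call in the Prkar1a+/- contrast, a difference of 1.99 (adjusted p = 1.00). Tested gene by gene with limma, the difference between the lesion effects passed for 0 of 10992 genes, with 281 at an unadjusted p under 0.05 and a smallest adjusted p of 0.692; the other ways of processing that kept all arrays also gave 0. Without WT 1 there were 15 genes past the threshold, without lesion 2 there were 9, without lesion 1 or without Prkar1a+/- lesion 1 there were 3, and without any other single array there were 0. The median standard error of this difference was 0.283, against 0.213 for the double heterozygous contrast.

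**Figure D5:**
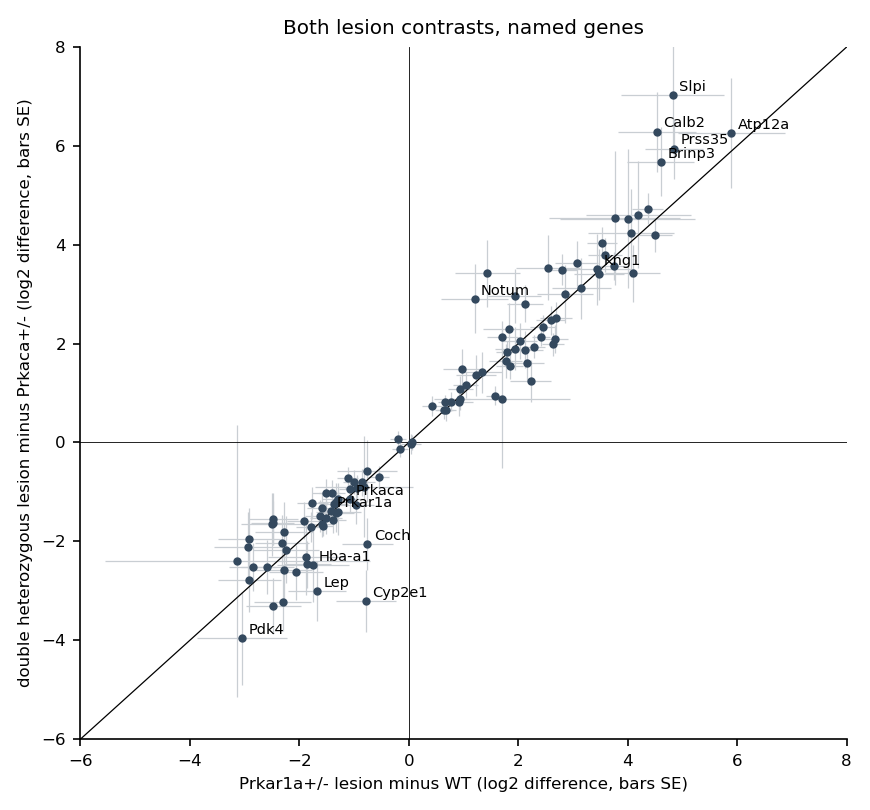
Log2 difference of each named gene in Prkar1a+/- lesions against WT (x axis) and in double heterozygous lesions against Prkaca+/- bone (y axis), with standard errors as bars and a line of equality. The named genes follow the line; Prkar1a lies at -1.43 and -1.38, while Notum and Cyp2e1 were called only in the double heterozygous contrast, a difference that did not pass its own test.

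Only 2 genes were called in opposite directions, both keratins, and they are named here after their values were seen. Krt17 read 8.88 and 6.91 on the lesion arrays and 5.42, 6.64, 4.92 and 5.45 on the Prkaca+/- arrays, a difference of 2.29 ± 0.61 (adjusted p = 0.0164). In Prkar1a+/- lesions against WT it was -2.60 (adjusted p = 0.00264). Krt27, a hair follicle keratin, read 8.36 and 7.63 against 4.76 to 4.86, with no detection on the Prkaca+/- arrays, at least 6.38-fold higher (adjusted p = 0.0176), and -2.10 in the other contrast (adjusted p = 0.0431). The difference between the contrasts passed for neither (adjusted p = 0.692 for Krt17 and 0.937 for Krt27). The keratinocyte list means given above were highest on lesion 1 and, without lesions, on a WT array. On lesion 2, where Krt27 read 7.63, the list mean of 6.57 lay within the Prkaca+/- range of 6.21 to 7.12. Whether epidermal RNA has a part in these calls was not tested.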

How the data were processed

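Total RNA of caudal vertebral bone was amplified to biotinylated cRNA and hybridised to 13 Illumina arrays of 25697 probes, per the labels. The authors deposited an unnormalised linear intensity for each probe on each array, empty where the detection p-value is above 0.1, and the deposited detection p-value itself, per the file headers. A deposited score table is, on each array, a straight line of the intensity and is empty in the same cells. No source used here names the scanner or its software. The number of arrays limits the precision.

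Empty intensities, 34.3% to 39.4% of each array, were filled from the detection p-value through the normal quantile, because the scores could not supply them as first planned. Values were background corrected (normexp, offset 16), quantile normalised and put on the log2 scale, none of which the authors deposited. Probes with a detection p under 0.01 on at least 2 of the 13 arrays were kept, 16226 in all, of which 985 have no gene name in the platform annotation (151 of these were higher and 131 lower). A gene is its probe of highest mean signal. limma 3.58.1 in R 4.3.3 fitted 4 group means with 9 residual degrees of freedom, with Benjamini-Hochberg adjustment over all tested probes, and was tested on simulated data.

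Members, lists and alternatives were chosen with earlier results of these data known. Genes were named by a rule: the 10 largest rises and falls among called genes detected on all 6 arrays without overlap of the groups, the 5 of highest mean on each side that the other side did not detect, the 2 largest called rises and falls of each list, every PKA and sex-linked gene, and the 5 detected called genes with lesion arrays farthest apart. All genes outside this rule were named after their values were seen. A list is described by its counts and median, without a set test. Promoter sequences are from RefSeq (GRCm38.p6); 79 of 111 named genes matched. Alternatives covered background correction, scaling, filters, empty values, the score table, the arrays in the fit, replicate number, Xist, muscle, a 2-fold threshold and leaving out each array. Those within Xist-low or Xist-high arrays, and probes detected on all 6 arrays, were chosen after seeing the data.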

Additional observations from a re-analysis of the deposited data

Results flagged for a closer look

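Among the 111 named genes, 6 had 1 Prkaca+/- array set apart from the other 3 by a Dixon test, and chance sets about 1 group in 20 apart. Prkaca+/- 4 read 8.30 for Xist (nearest array 5.20), 4.44 for the Y-linked gene Eif2s3y (nearest 11.64) and 4.40 for the Y-linked gene Kdm5d (nearest 7.18), the pattern of a female, where the other 3 had that of males. Of the lesions, lesion 2 had the female and lesion 1 the male pattern. Prkaca+/- 4 also read 13.03 for Atp5g1, where the nearest array was 13.29, and both lesion arrays lay lower still. Prkaca+/- 3 read 5.27 for Il1b, which was not detected in its group, with the nearest array at 4.91. Prkaca+/- 1 read 6.93 for Col11a1, with the nearest array at 5.96 and both lesion arrays above it.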

How the results depend on the processing

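In double heterozygous lesions against Prkaca+/- bone, the counts of 1708 higher and 1486 lower genes moved by over 1.5 times with the muscle list as a covariate (964 and 609), with a 2-fold threshold added (864 and 618) and within the Xist-high arrays (351 and 127). They ranged from 778 to 1554 higher and from 318 to 1296 lower with 1 array left out, the lowest without lesion 1. Within the Xist-low arrays they were 1409 and 1095. In Prkar1a+/- lesions against WT, 2277 genes were higher and 2121 lower; the counts were 459 and 99 with the muscle covariate and 978 and 886 with the 2-fold threshold, and with 1 array left out 1508 to 2523 and 1280 to 2281. The score table gave 1936 and 2902 there, so that 40.0% of called genes were higher against 51.8%, and moved the median of all genes to -0.15; with empty values left missing 61.8% were higher (2580 and 1592) and the median was 0.12. The difference between the lesion effects gave 0 to 15 higher and 0 to 3 lower genes with 1 array left out, and was not run on the arrays of 1 contrast, which cannot hold it.

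The median of the cAMP-responsive list (0.37) turned to -0.041 over probes detected on all 13 arrays, -0.043 over those detected on all 6 and -0.070 within Xist-low arrays. With 1 array left out it ranged from -0.105 (without lesion 2) to 0.560 (without lesion 1). The T and NK cell median turned to -0.098 with the muscle covariate, and within Xist-high arrays the megakaryocyte median turned to -0.148 and the tendon and disc median to 0.246. The cause was not tested.

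With the replicate number as a block, 1337 genes were higher and 1039 lower, and 24 of the 102 named genes with a call lost it. Between the Prkaca+/- and lesion arrays, deviations from the group means gave r = 0.178 for number 1 and -0.013 for number 2. With 2 lesion arrays these deviations are mirror images, so the values cannot test pairing. Between the other 3 groups, same-numbered arrays gave r from -0.244 to 0.358. The numbers were not taken to pair the samples, and whether they do is not known. Of the named genes, 29 lost the call with the muscle covariate, 52 without lesion 1, 32 without lesion 2 and 70 within Xist-high arrays, which hold 1 array a side; none changed direction among the calls.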
